A study of Mus musculus with 22 samples.

Results

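The genes described here are 10 members of the interleukin-2 (IL-2) signalling axis in regulatory T cells (Tregs): the 3 receptor chains Il2ra, Il2rb and Il2rg, the transcription factors Stat5a and Stat5b, the feedback inhibitors Cish and Socs1, and the kinases Pim1, Pim2 and Pim3. They are 10 of the 55011 gene symbols in the deposited count table, and all 10 passed the filter on low counts. The set was chosen by function with earlier results of these libraries known, and it was selected on 1 measured pattern, the high level of Pim1 and Il2ra in transferred KO cells. Values that compare transferred KO cells with transferred WT cells, or with any other group, are therefore given as a description with no test.

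The libraries were made from Foxp3-YFP+ Tregs of the visceral adipose tissue of male C57BL/6 mice that carried Foxp3.Cre-YFP in every group. Cells labelled Bmal1 KO were compared with cells labelled Bmal1 WT (KO and WT stand for these labels throughout), where BMAL1, encoded by Arntl, is a core transcription factor of the circadian clock. On lean diet, mice were 18 weeks old; for 4 weeks of high fat diet (HFD) they were also 18 weeks old; for 16 weeks of HFD they were 30 weeks old, and 14 weeks of lean diet came before the HFD. Each of these conditions held 3 KO and 3 WT libraries. A further 2 KO and 2 WT libraries came from Foxp3-YFP+ Tregs sorted 9 weeks after adoptive transfer, from mice 20 weeks old. Every library came from 1000 cells sorted in succession at ZT0, when the lights come on. The labels name the Foxp3.Cre-YFP strain, in which Cre is tied to the Treg gene Foxp3, but they do not give the deleted part of Arntl, the host of the transferred cells or whether replicates came from separate animals, so p-values measure the spread between these libraries, which may be technical. Age goes with the 16-week diet, and host, age and depth go with the transfer, and these cannot be told apart from the diet or the transfer.

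IL-2 is captured on Tregs by IL2RA (CD25), which raises the affinity of the pair formed by IL2RB (CD122) and IL2RG (the common gamma chain). JAK1 and JAK3, bound to those chains, then phosphorylate STAT5A and STAT5B, which dimerise, enter the nucleus and bind target genes, among them Il2ra itself, Cish, Socs1 and Pim1. CISH and SOCS1 damp the receptor, and PIM kinases, which are active as soon as they are made, promote survival and protein synthesis. Tregs make almost no IL-2 themselves and depend on it from other cells.

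The identity of the cells was checked against marker genes. Foxp3 lay between 404.8 and 688.2 CPM (counts scaled to a common library size by the TMM method) over the 22 libraries, and Cd8a was at 0 in 21 libraries and at 0.38 CPM in a transferred KO library. The macrophage gene Lyz2 stayed between 0 and 3.6 CPM. Markers of other cells were not all so low. Summed cytotoxic T and NK cell markers ran from 189.2 to 1271 CPM in the diet libraries, and summed B cell markers from 320.9 to 1292 CPM. Summed ILC2 and mast cell markers ran from 244.9 to 743 CPM in the diet libraries and from 837.8 to 1068 CPM after transfer. The highest cytotoxic sum was in WT replicate 3 of the 16-week diet, which also held the highest Il2rb of the series (2268 CPM). The part of such cells in the members' values was not tested. Each of the 4 transfer libraries held 4814337 to 5990319 counts, and each of the 18 diet libraries 1955940 to 3467019. The transfer libraries stood apart from the diet libraries beyond depth: Trac, the constant part of the T cell receptor alpha chain, was at 4130 to 8058 CPM after transfer and at 467 to 702 CPM in the diet libraries. Arntl, the gene named in the KO label, was not lower in KO cells in any condition. On lean diet it averaged 84.4 ± 15 CPM in KO cells, against 69.5 ± 5.18 CPM in WT cells, and at 4 weeks of HFD 86.9 ± 4.55 CPM in KO cells, against 84.6 ± 20.8 CPM in WT cells (SD, n = 3 each). At 16 weeks it averaged 87.4 ± 4.82 CPM in KO cells, against 70.0 ± 12.9 CPM in WT cells (n = 3 each), and after transfer 97.0 ± 0.109 CPM in KO cells, against 90.4 ± 8.82 CPM in WT cells (n = 2 each). Since the deleted part is not given, whether these counts bear on it is not known, and they do not check the labels. Il2 had at most 3.675 CPM in any library.

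Per kilobase of exon, the members spanned a wide range of levels. The length was that of all annotated exons of a gene joined together. Which transcripts were expressed was not determined, so the order between genes is approximate. In KO cells on lean diet Il2rg had 437 ± 15.4 CPM per kb, Pim1 360 ± 100, Il2rb 277 ± 29.9, Il2ra 143 ± 29.8 and Cish 128 ± 5.42 CPM per kb (SD, n = 3). Below them were Pim3 at 44.3 ± 6.1, Socs1 at 35.1 ± 3.11, Stat5b at 19.0 ± 5.33, Stat5a at 14.3 ± 1.09 and Pim2 at 12.6 ± 2.42 CPM per kb. Pim2 was the lowest of the 10 in each of the 8 groups. After transfer Pim1 was rank 1 in KO cells at 537 ± 4.34 CPM per kb and rank 5 in WT cells at 153 ± 5.98 CPM per kb (SD, n = 2 each). All later levels are CPM not divided by length, and are compared only within a gene.

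**Figure D1:**
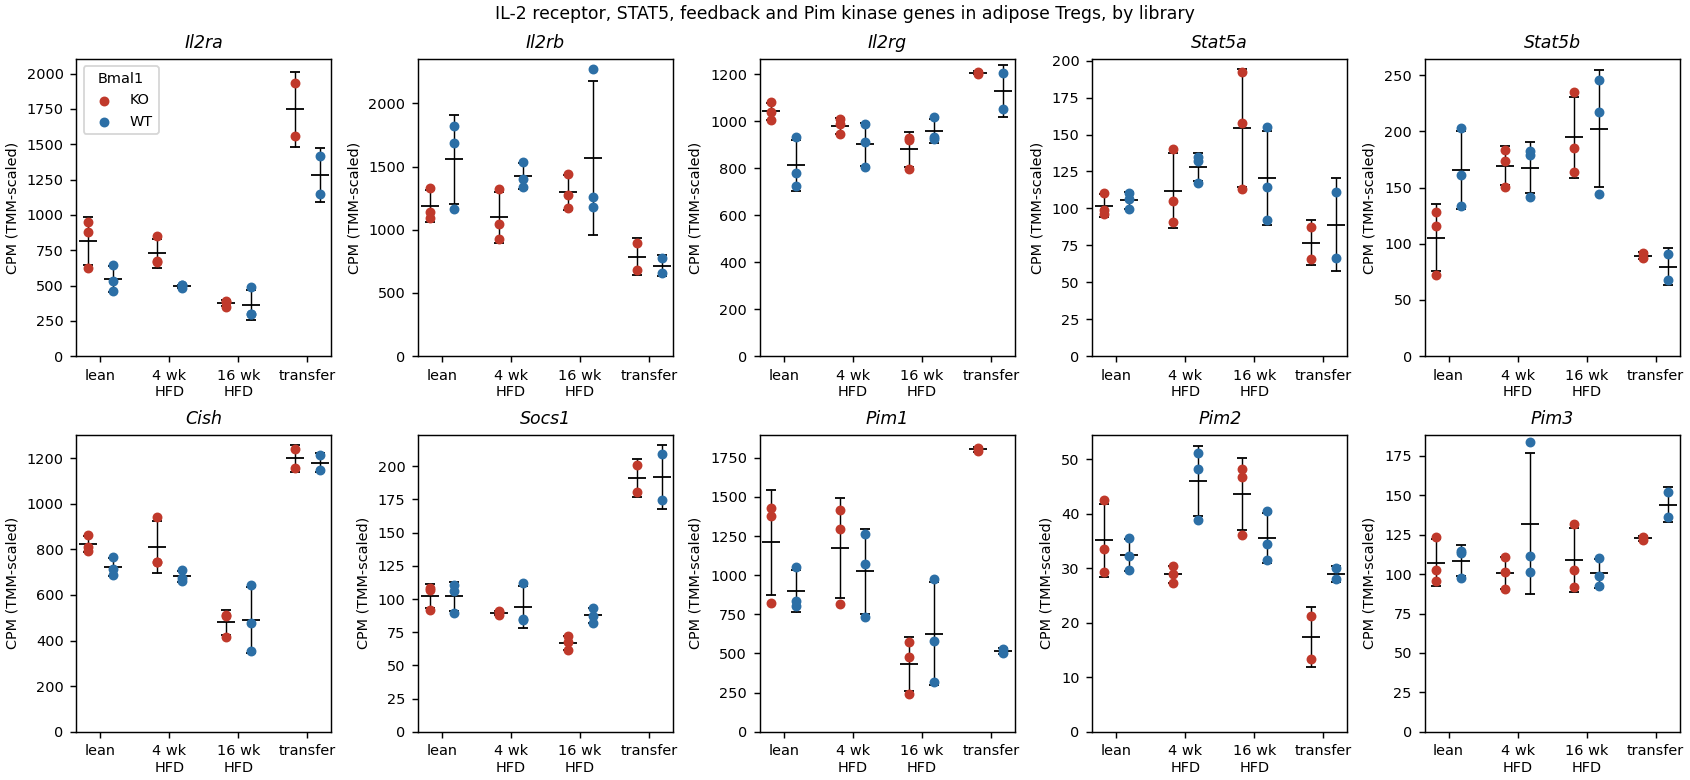
CPM (TMM-scaled, linear axes from 0) of the 10 genes in each of the 22 libraries, KO (red) left of WT (blue) in each condition; horizontal lines are group means and error bars the SD over 3 libraries (2 after transfer). Il2ra and Cish are lowest at 16 weeks of HFD and highest after transfer in both genotypes, and Pim1 reaches 1794 and 1814 CPM in transferred KO cells, against 529.8 and 501.4 CPM in transferred WT cells.

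Il2ra, which encodes the chain that gives the receptor its high affinity, lies on mm10 chr2:11642807-11693193 (plus strand). On lean diet it had 624.0, 880.2 and 946.7 CPM in KO cells, against 643.2, 530.4 and 460.7 CPM in WT cells. After 4 weeks of HFD it had 848.8, 664.2 and 670.2 CPM in KO cells, against 502.0, 502.7 and 482.8 CPM in WT cells. KO and WT libraries overlapped on lean diet by the lowest KO library and did not overlap at 4 weeks. After 16 weeks of HFD the values were 390.0, 384.9 and 350.2 CPM in KO cells, against 301.0, 486.3 and 301.5 CPM in WT cells. After transfer they were 1937 and 1557 CPM in KO cells, against 1147 and 1415 CPM in WT cells. Transferred cells of both genotypes thus lay above every diet library, and the 16-week groups overlapped each other at the bottom. The share of all genes that separate transferred from diet libraries was not computed. Such separations, for this and the later genes, are therefore a description only. Ordered by mean, the groups ran from transferred KO (1747 ± 268 CPM) and transferred WT (1281 ± 189) through KO lean (817 ± 170), KO 4 weeks (727.7 ± 105), WT lean (544.8 ± 92.1) and WT 4 weeks (495.9 ± 11.3) to KO 16 weeks (375 ± 21.7) and WT 16 weeks (362.9 ± 107 CPM; SD, n = 3, or 2 after transfer). Neighbours in that order that overlapped were KO lean with KO 4 weeks, WT lean with WT 4 weeks, and KO with WT at 16 weeks.

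Il2rb (chr15:78479256-78495271, minus strand) encodes the signalling chain shared with the IL-15 receptor, and its order was nearly the reverse. On lean diet it had 1091, 1332 and 1138 CPM in KO cells, against 1161, 1824 and 1685 CPM in WT cells. After 4 weeks of HFD it had 928.9, 1323 and 1048 CPM in KO cells, against 1334, 1538 and 1398 CPM in WT cells. The 4-week groups did not overlap, KO being the lower. After 16 weeks it had 1271, 1173 and 1443 CPM in KO cells, against 1181, 1257 and 2268 CPM in WT cells, and the groups overlapped. After transfer it had 892.7 and 683.0 CPM in KO cells, against 772.8 and 658.8 CPM in WT cells, below every diet library of either genotype. The ratio of Il2ra to Il2rb CPM was 2.17 and 2.28 in transferred KO libraries and 1.48 and 2.15 in transferred WT libraries, and between 0.133 and 0.914 in the 18 diet libraries.

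Il2rg (chrX:101264378-101268255, minus strand) encodes the gamma chain that the receptors for IL-4, IL-7, IL-9, IL-15 and IL-21 also use. It had the narrowest range of the 10 genes, from 723.1 to 1211 CPM over all libraries (1.67-fold). On lean diet it had 1006, 1041 and 1080 CPM in KO cells, against 932.5, 723.1 and 780.8 CPM in WT cells, with no overlap. The values were 986.6, 944.4 and 1010 CPM in KO cells, against 910.9, 804.2 and 989.7 CPM in WT cells, at 4 weeks of HFD. They were 795.9, 920.3 and 926.9 CPM in KO cells, against 934.9, 1019 and 923.9 CPM in WT cells, at 16 weeks, so that both later diets showed overlap. After transfer Il2rg had 1211 and 1202 CPM in KO cells, against 1052 and 1206 CPM in WT cells. Of its exon bases 30.5% are shared with the overlapping gene Gm20489, which had 0 or 1 count in each library, and reads in the shared part cannot be assigned to either with certainty.

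Stat5a (chr11:100859351-100885169, plus strand) and Stat5b (chr11:100780731-100850724, minus strand) are neighbouring genes for the near-identical factors that the receptor activates. Of the 38-base words in their exons, 10.7% for Stat5a and 13.5% for Stat5b also occur in another gene, 745 of them in each other, so part of their reads could be split between them and their counts are uncertain to that extent. Stat5b had 128.3, 115.9 and 72.12 CPM in KO cells on lean diet, against 161.1, 133.3 and 202.8 CPM in WT cells, all KO libraries being below all WT libraries. At 4 weeks of HFD it had 173.8, 150.2 and 183.8 CPM in KO cells, against 182.6, 179.3 and 141.5 CPM in WT cells. At 16 weeks it had 164.1, 185.0 and 234.7 CPM in KO cells, against 246.0, 144.6 and 217.1 CPM in WT cells, and at neither time were the groups apart. After transfer it had 91.55 and 87.25 CPM in KO cells, against 91.13 and 68.10 CPM in WT cells. Stat5a ran from 91.00 to 192.5 CPM in the diet libraries, its highest group being KO at 16 weeks (154.5 ± 39.7 CPM), and it had 87.46 and 66.05 CPM in transferred KO cells, against 66.64 and 111.1 CPM in transferred WT cells.

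Cish (chr9:107296026-107302784, plus strand) encodes an SH2 protein induced by STAT5 that dampens cytokine and T cell receptor signals. On lean diet it had 812.4, 794.6 and 861.8 CPM in KO cells, against 767.1, 714.3 and 687.7 CPM in WT cells. After 4 weeks of HFD it had 943.6, 742.7 and 745.3 CPM in KO cells, against 710.2, 672.3 and 660.5 CPM in WT cells. KO lay above WT with no overlap in both conditions, by a narrow gap. After 16 weeks it had 514.2, 417.2 and 507.3 CPM in KO cells, against 355.2, 643.8 and 477.4 CPM in WT cells. After transfer it had 1240 and 1157 CPM in KO cells, against 1212 and 1150 CPM in WT cells, with overlap between genotypes and none with the diet libraries. Socs1 (chr16:10782240-10785536, minus strand), an inhibitor of JAK kinases, had the same top and bottom. It had 201.0 and 180.9 CPM in transferred KO cells, against 174.8 and 209.0 CPM in transferred WT cells, and 61.55 to 112.4 CPM in the diet libraries. Its lowest group was KO at 16 weeks with 72.32, 61.55 and 67.49 CPM, against 82.28, 87.53 and 93.29 CPM in WT at 16 weeks, without overlap.

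Pim1 (chr17:29490753-29496112, plus strand) encodes a serine/threonine kinase that cytokines induce through STAT5. It had the widest range of the 10 genes over all libraries, from 241.6 to 1814 CPM (7.51-fold), and the highest coefficient of variation over the 18 diet libraries, 41.4%. On lean diet it had 1375, 822.3 and 1432 CPM in KO cells, against 836.8, 1054 and 803.1 CPM in WT cells. After 4 weeks of HFD it had 815.0, 1293 and 1415 CPM in KO cells, against 1072, 733.4 and 1266 CPM in WT cells. Genotypes overlapped in both conditions. After 16 weeks it had 477.8, 574.5 and 241.6 CPM in KO cells, against 581.6, 318.8 and 973.0 CPM in WT cells, again with overlap. After transfer it had 1794 and 1814 CPM in KO cells, against 529.8 and 501.4 CPM in WT cells. The transferred KO libraries were above every other library of the series, while the transferred WT libraries lay within the range of the 16-week libraries. Of the exon bases of Pim1 14.5% are shared with the antisense gene Gm26885. Gm26885 had 103 and 107 counts in transferred KO libraries and 92 and 106 counts in transferred WT libraries, and the kit does not mark strand, so reads of the pair cannot be told apart there.

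Pim2 (chrX:7878262-7883432, plus strand) and Pim3 (chr15:88862186-88865726, plus strand) encode kinases of the same family with overlapping substrates. Pim2 had 30.50, 27.24 and 28.89 CPM in KO cells after 4 weeks of HFD, against 38.85, 48.16 and 51.19 CPM in WT cells, with no overlap. After transfer it had 21.33 and 13.44 CPM in KO cells, against 30.01 and 28.00 CPM in WT cells, again with KO lower. On lean diet and at 16 weeks its genotypes overlapped, within 29.33 to 48.25 CPM. Pim3 was at 123.9 and 121.7 CPM in transferred KO cells, against 136.1 and 152.1 CPM in transferred WT cells, and its diet groups overlapped throughout, from 90.76 to 183.7 CPM. As a description, the ratio of Pim1 to Pim3 CPM was 14.5 and 14.9 in transferred KO libraries, against 3.89 and 3.3 in transferred WT libraries, and between 1.83 and 15 in the diet libraries.

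Promoter sequence was compared for members that moved together or apart. RefSeq windows (GRCm38.p6, the mm10 assembly, from 250 bases before to 50 after a listed start) were matched for 9 of the 10 members; Il2rb is named only. Each was searched on both strands for TTCNNNGAA, the palindromic core that STAT5 dimers are known to bind, and CACGTG, the E-box that BMAL1 binds with CLOCK; each motif reads the same on either strand, the pair cannot overlap each other, and overlapping matches of TTCNNNGAA with itself were each counted. Cish and Il2ra are shown because their levels followed each other most closely, and Pim1 because it stood apart after transfer; capitals mark motif matches.
Cish, chr9:107296409-107296708, plus strand: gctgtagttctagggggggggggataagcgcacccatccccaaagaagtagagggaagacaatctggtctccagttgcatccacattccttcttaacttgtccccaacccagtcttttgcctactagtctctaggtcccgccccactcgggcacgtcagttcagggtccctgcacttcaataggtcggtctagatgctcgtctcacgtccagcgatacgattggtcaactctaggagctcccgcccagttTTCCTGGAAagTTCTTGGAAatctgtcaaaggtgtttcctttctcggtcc
Il2ra, chr2:11642542-11642841, plus strand: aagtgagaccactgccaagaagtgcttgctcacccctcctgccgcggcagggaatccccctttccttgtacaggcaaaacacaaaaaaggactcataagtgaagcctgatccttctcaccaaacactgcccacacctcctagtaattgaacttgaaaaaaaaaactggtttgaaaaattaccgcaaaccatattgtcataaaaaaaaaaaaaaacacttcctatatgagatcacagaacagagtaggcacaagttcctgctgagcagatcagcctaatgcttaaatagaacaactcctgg
Pim1, second listed start, chr17:29492835-29493134, plus strand: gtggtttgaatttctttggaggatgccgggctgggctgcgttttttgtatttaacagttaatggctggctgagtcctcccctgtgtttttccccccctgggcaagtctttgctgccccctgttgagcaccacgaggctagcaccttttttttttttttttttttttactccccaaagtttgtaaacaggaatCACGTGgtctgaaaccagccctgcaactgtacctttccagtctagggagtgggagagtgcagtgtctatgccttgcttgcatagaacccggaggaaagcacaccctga
The Cish window held 2 matches of TTCNNNGAA, TTCCTGGAA from position 1 and TTCTTGGAA from position 12, counted from the listed start, and the Pim1 window shown held CACGTG 58 bases before its start. That window lies inside the gene; the window at the first listed start of Pim1 held neither motif, nor did the Il2ra window or those of the other members. Of all 32851 promoter windows in the table, 8.3% held TTCNNNGAA, 0.457% held it at least 2 times, and 7.15% held CACGTG. A match is a description of the letters in these windows, and enhancers, where STAT5 is known to bind Il2ra, lie outside them.

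Bmal1 KO cells were tested against WT cells within each diet with the edgeR quasi-likelihood test and Benjamini-Hochberg adjustment over 11698 genes, and 0 of the 10 members passed an adjusted p of 0.05 in any diet. The background was as sparse: 0.0427% of genes passed on lean diet, 0.0684% at 4 weeks and 0.0427% at 16 weeks of HFD. At an unadjusted p under 0.05, 3 members were called on lean diet (7.17% of genes), 2 at 4 weeks (4.62%) and 1 at 16 weeks (9.15%), and DESeq2 and limma-voom each called 0 at an adjusted p. The log2 fold change of Il2ra, KO over WT, was 0.59 ± 0.177 on lean diet (SE; adjusted p = 0.41), 0.56 ± 0.177 at 4 weeks (0.995) and 0.04 ± 0.177 at 16 weeks (0.979). Averaged over the 3 diets it was 0.40 ± 0.102 (adjusted p = 0.243 by edgeR), a 1.32-fold difference that did not pass; 0.18% of genes passed and 0 members did, with 2 members at an unadjusted p under 0.05 (7.39% of genes) and 0 by DESeq2 or limma-voom. Without WT replicate 2 of the 16-week diet, which held the highest Il2ra of its group, the adjusted p of the average was 0.0126. With no filter on low counts it was 2.13e-05.

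The other receptor chains differed in the opposite sense or by less. Il2rb averaged a log2 fold change of -0.34 ± 0.116, KO over WT (adjusted p = 0.458), with negative values in each of the 3 diets, -0.39, -0.36 and -0.28. Il2rg was 0.36 ± 0.105 on lean diet (adjusted p = 0.41) and -0.12 ± 0.105 at 16 weeks (0.825). Stat5b was -0.65 ± 0.216 on lean diet (adjusted p = 0.483), Pim2 -0.66 ± 0.189 at 4 weeks (0.793) and Socs1 -0.39 ± 0.14 at 16 weeks (0.373), none of them past the threshold. Pim1 had log2 fold changes of 0.43 ± 0.332, 0.21 ± 0.331 and -0.54 ± 0.334 from lean to 16 weeks, with adjusted p of 0.838, 0.999 and 0.705. Libraries of KO and WT did not overlap for Il2rg and Cish (KO higher) and Stat5b (KO lower) on lean diet, where 6.72% and 6.3% of 12523 genes separated in those directions. At 4 weeks this held for Il2ra and Cish (KO higher; 4.69% of genes) and Il2rb and Pim2 (KO lower; 5.01%), and at 16 weeks for Socs1 (KO lower; 7.43%) and for none in the higher direction (6.62%).

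**Figure D2:**
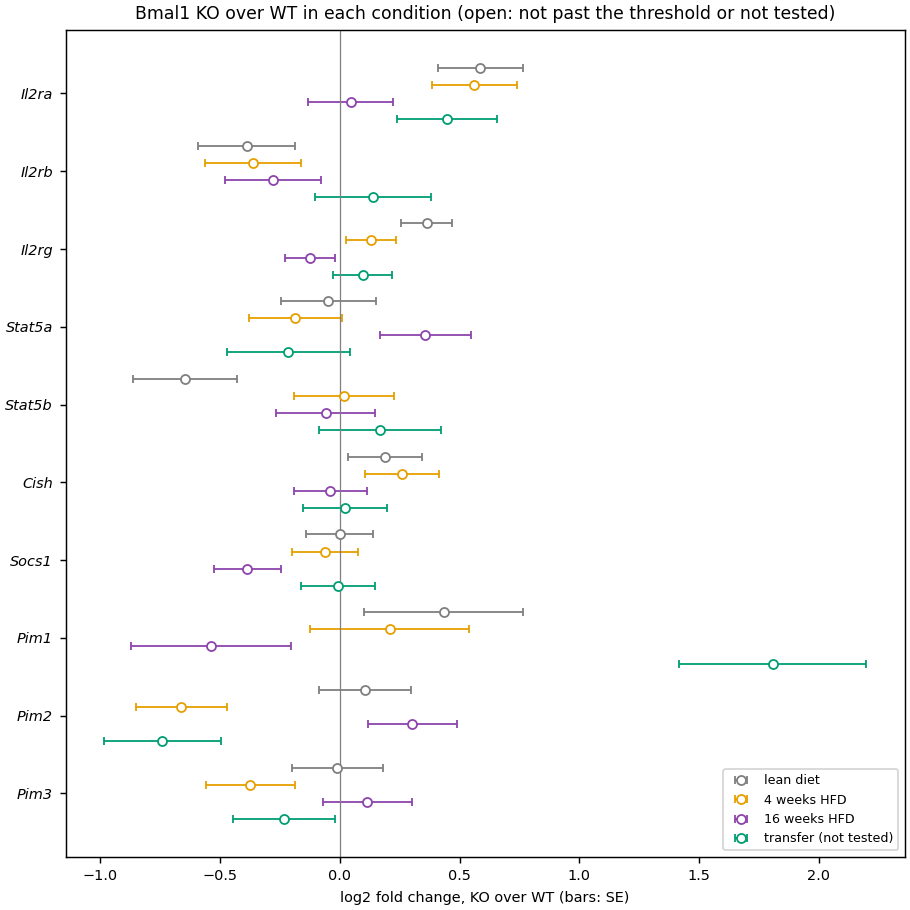
Log2 fold change, KO over WT, of the 10 genes in each condition with bars of 1 SE from the edgeR fit; conditions run from lean diet to transfer within each gene. No diet value passed an adjusted p of 0.05, and the transfer values, which were not tested, include Pim1 at 1.81 and Pim2 at -0.74.

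After transfer, the values that led to the choice of the set are given with no test. Pim1 was 3.5-fold higher in KO cells than in WT cells, a log2 fold change of 1.81 ± 0.392 (SE). Il2ra was 1.36-fold higher (log2 0.45 ± 0.21), with KO libraries at 1937 and 1557 CPM, against WT libraries at 1147 and 1415 CPM. In the same cells Cish and Socs1, the feedback inhibitors, had log2 fold changes of 0.02 ± 0.175 and -0.01 ± 0.156. Il2rb was at 0.14 ± 0.241, Il2rg at 0.10 ± 0.124, Stat5a at -0.22 ± 0.257 and Stat5b at 0.17 ± 0.255. The sign of each of these values turned when transfer libraries were left out in turn, for example from -0.54 to 0.19 for Stat5a. Pim2 was at -0.74 ± 0.244 and Pim3 at -0.23 ± 0.213, so that Pim1 was the only member of its family with a higher level in transferred KO cells. Il2ra and Pim1 in the higher direction (18.6% of genes) and Pim2 and Pim3 in the lower (16.6%) had libraries that did not overlap. Among 22 other genes known as STAT5 targets in T cells the median log2 fold change was 0.02, the same as over all genes (0.02), with 13 positive and 9 negative. Ccnd2, which encodes cyclin D2, was at 0.02, Bcl2l1, which encodes the survival protein BCL-XL, at 0.06, and Osm, which encodes oncostatin M, at -0.05. Not all of these targets lay near 0: Gzmb was at 1.04 ± 0.463 and Il10 at -0.61 ± 0.512. Of 12 genes for PIM kinase substrates 4 were positive, with a median of -0.08, and Cxcr4, the receptor for CXCL12, was at -1.60 ± 0.328. The cause of the Pim1 and Il2ra levels in transferred KO cells was not tested.

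The 16-week HFD was set against lean diet to ask what a long diet, with greater age, did to the axis. In KO cells 5 of the 10 members passed, 4 of them lower (3.59% of all genes were lower) and 1 higher (2.36%), with 5.95% of genes passing in either direction. Il2ra fell to 375 ± 21.7 CPM at 16 weeks, against 817 ± 170 CPM on lean diet, a log2 fold change of -1.13 ± 0.179 (adjusted p = 0.000664). Pim1 fell to 431.3 ± 171 CPM, against 1210 ± 337 CPM (log2 -1.50 ± 0.339, adjusted p = 0.0114). Every 16-week KO library was below every lean KO library for both genes. The share of all genes that separated in this way was not computed, so the separation is a description only. Cish fell to 479.6 ± 54.1 CPM, against 822.9 ± 34.8 CPM (log2 -0.78 ± 0.155, adjusted p = 0.00416), and Socs1 to 67.12 ± 5.39 CPM, against 102.1 ± 9.04 CPM (log2 -0.61 ± 0.141, adjusted p = 0.0128). Stat5b rose to 194.6 ± 36.3 CPM, against 105.5 ± 29.5 CPM (log2 0.88 ± 0.214, adjusted p = 0.0173). The alpha chain, the feedback inhibitors and Pim1 were thus lower while Stat5b was higher. Stat5a had a log2 fold change of 0.60 ± 0.195 (adjusted p = 0.0764 by edgeR; DESeq2 and edgeR with no filter called it), and Il2rg (-0.25), Il2rb (0.12), Pim2 (0.32) and Pim3 (0.01) did not pass. In bulk libraries, fewer cells with a transcript and less of it per cell cannot be told apart. The calls of Il2ra and Cish held in all 14 alternatives; Pim1, Socs1 and Stat5b each lost theirs without KO replicate 3 of the 16-week diet (edgeR adjusted p of 0.0639, 0.0503 and 0.098), which left 2 members called. Socs1 also lost its call without KO replicate 2 of the lean diet (0.0566) or of the 16-week diet (0.0594), and Stat5b without KO replicate 3 of the lean diet (0.0849).

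In WT cells the same comparison called 0 members, where 0.0855% of genes passed. At an unadjusted p under 0.05, 3 members were called (8.76% of genes), and DESeq2 called 1, Cish. Il2ra averaged 362.9 ± 107 CPM at 16 weeks, against 544.8 ± 92.1 CPM on lean diet (log2 -0.59 ± 0.178, adjusted p = 0.244). Cish averaged 492.1 ± 145 CPM, against 723.1 ± 40.4 CPM (log2 -0.56 ± 0.154, adjusted p = 0.195). Pim1 had a log2 fold change of -0.53 ± 0.333 (adjusted p = 0.696), Socs1 -0.22 (0.692) and Stat5b 0.29 (0.745). The signs were those seen in KO cells for these 5 genes, and 1 library carried much of the spread: WT replicate 2 had 486.3 CPM of Il2ra and 643.8 CPM of Cish, and without it both passed, with 2 members called. That library also had the highest sum of adipose Treg markers in its group, 5998 CPM, against 2891 and 3546 CPM. Its sum of B cell markers was the lowest, 389.3 CPM, against 952.8 and 680.1 CPM. The part of these markers in its Il2ra and Cish levels was not tested. The difference between the genotypes was tested as an interaction, and 0 of 11698 genes passed (0%). For Il2ra it was -0.54 ± 0.25 (adjusted p = 0.579), for Pim1 -0.97 ± 0.471 (0.589) and for Il2rg -0.49 ± 0.148 (0.328), and 993 genes, 2 of them members, had an unadjusted p under 0.05. DESeq2 called 26 genes and 0 members, and limma-voom 0 genes. The fall in KO cells was therefore not shown to be different from the change in WT cells.

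Set against 4 weeks of HFD, 16 weeks in KO cells gave 3 members, all lower (1.25% of genes lower, 1.64% in either direction): Il2ra (log2 -0.96 ± 0.178, adjusted p = 0.00772), Cish (-0.76 ± 0.155, 0.0151) and Pim1 (-1.45 ± 0.339, 0.0305). This count was 0 without KO replicate 1 of the 16-week diet, 1 (Pim1) without KO replicate 1 of the 4-week diet and 2 without any 1 of the other 4 libraries. Il2ra lost its call in the first of these fits (adjusted p = 0.0502) and in the second (0.0536), and Pim1 was lost in 4 fits (0.074 to 0.143) and Cish in 3 (0.0604 to 0.096). In WT cells 0 genes passed for 16 against 4 weeks (0%), with 884 genes and 3 members at an unadjusted p under 0.05, 27 genes but 0 members by DESeq2 and 0 by limma-voom. The 4-week HFD against lean diet called 0 genes (0%) in either genotype by edgeR. In KO cells 836 genes and 1 member, Stat5b (log2 0.68 ± 0.214, adjusted p = 0.517), had an unadjusted p under 0.05, with 21 genes by DESeq2 and 1 by limma-voom. In WT cells 654 genes and 1 member, Pim2 (log2 0.49 ± 0.19, adjusted p = 0.849), did so, with 0 genes by either other tool. Of the genotype differences in these steps, that of Pim2 between 4 and 16 weeks had the smallest unadjusted p among members (log2 0.96 ± 0.264, adjusted p = 0.577 by edgeR), and 0 genes passed, with 784 at an unadjusted p under 0.05, 1 by DESeq2 and 0 by limma-voom.

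**Figure D3:**
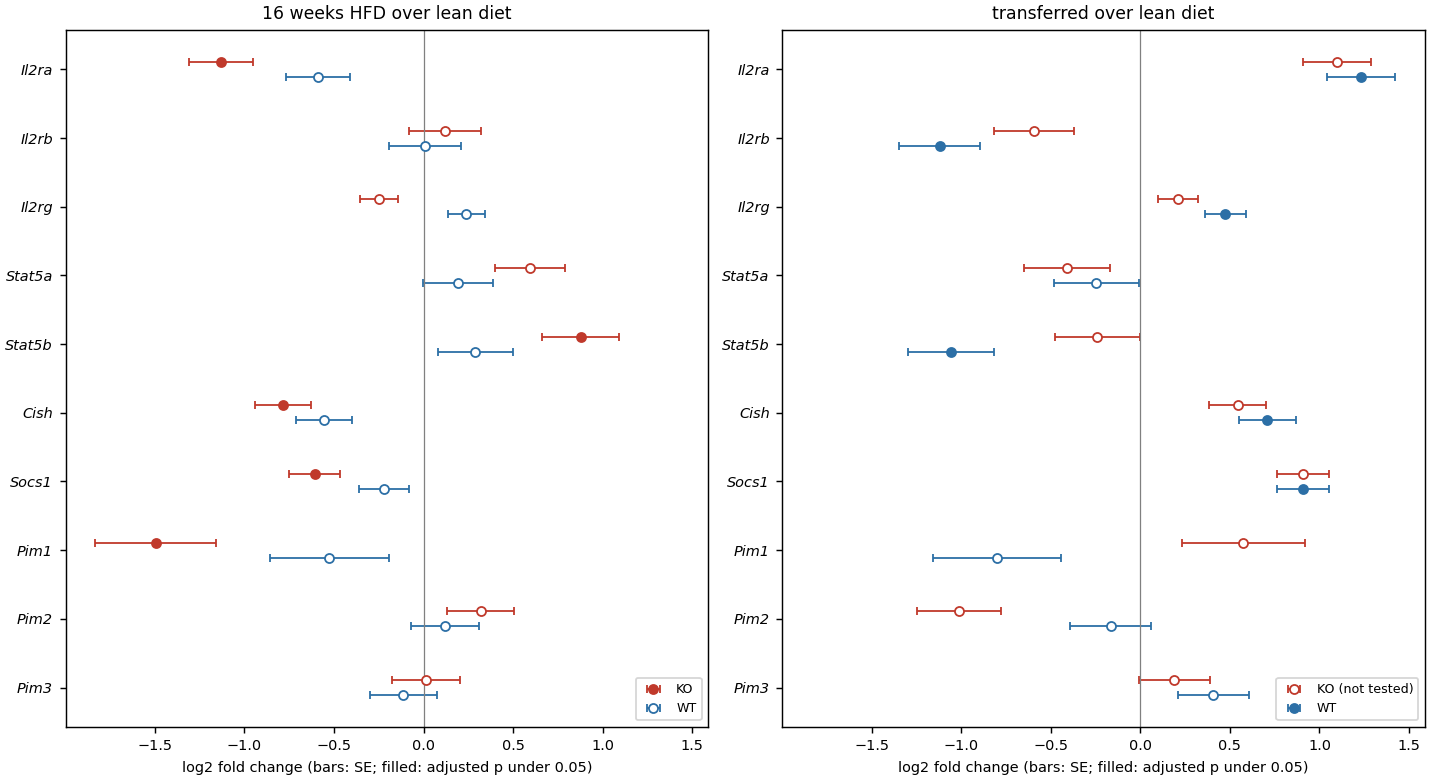
Log2 fold changes with bars of 1 SE for 16 weeks of HFD over lean diet (left) and for transferred cells over lean diet (right), KO (red) above WT (blue) for each gene; filled points passed an adjusted p of 0.05, transferred KO cells were not tested, and both panels use the same lean libraries. Il2ra and Cish lie left of 0 at 16 weeks and right of 0 after transfer in both genotypes, and Pim1 after transfer lies at 0.58 in KO and -0.80 in WT cells.

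Around the members, other genes of the pathway were read from lists drawn up with earlier results known. For 16 weeks of HFD against lean diet in KO cells, 6 of 12 ligands and related receptors were measured, of which 1 fell: Il9r, which pairs with the gamma chain, with a log2 fold change of -1.85 (adjusted p = 0.00042). Jak1 and Jak3, the kinases of this receptor, did not pass and averaged 850.9 and 425.7 CPM at 16 weeks, against 731.4 and 359.6 CPM on lean diet. Of 16 negative regulators 2 rose, the phosphatase gene Ptpn6 (0.66) and the ubiquitin ligase gene Cblb (0.66), and 1 fell, Socs2 (-1.05, adjusted p = 0.000659), itself known as a STAT5-induced gene. Of 9 measured adaptors and kinases, Ptpn11, which encodes the phosphatase SHP2, rose (0.70). The calls of Cblb and Ptpn11 were each lost in at least 6 of 14 alternatives, and that of Ptpn6 in 4.

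Genes known as STAT5 targets went both ways in that comparison. Of 22, 5 fell and 3 rose, with a median log2 fold change of -0.24, against 0.001 over all genes. Ccnd2 fell to 677.6 ± 17.6 CPM in 16-week KO cells, against 1230 ± 172 CPM in lean KO cells (log2 -0.87, adjusted p = 6.71e-05). Bcl2l1 fell to 236.1 ± 20.3 CPM, against 412.4 ± 44.2 CPM (log2 -0.81, adjusted p = 0.00509). Il10, which encodes an inhibitory cytokine (log2 -1.96), Gzmb, for granzyme B (-1.47), and Gata3, a transcription factor of adipose Tregs (-0.73), fell as well. Those that rose were Lta, which encodes lymphotoxin alpha (2.86, adjusted p = 0.00212), and the costimulatory receptor genes Tnfrsf9 (1.15) and Icos (0.87). Of 12 genes for PIM substrates 3 fell, namely the cell cycle inhibitor gene Cdkn1a (log2 -1.42, adjusted p = 0.000178), the translation repressor gene Eif4ebp1 (-1.26) and the transcription factor gene Foxo3 (-0.68), while the median was 0.05. Of these calls, Foxo3 was lost in 7 of 14 alternatives, Gzmb in 5, Gata3 in 4 and Il10 in 3. PIM kinases act on the proteins of the substrate list, not on their transcripts. In WT cells the only pathway genes called were Tnfrsf9 (log2 1.48, adjusted p = 0.0213) and Gzmb (-2.27, adjusted p = 0.0232), both among the STAT5 targets; Tnfrsf9 was lost in 6 of 14 alternatives and Gzmb in 5.

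Other gene groups moved with the members in KO cells at 16 weeks. Of 20 immediate early genes, which T cell receptor signals and tissue handling induce, 14 fell, and their summed level was 13680 to 16340 CPM at 16 weeks, against 33740 to 35460 CPM on lean diet. Of 9 markers of adipose Tregs 7 fell and 1 rose, with sums of 2681 to 3216 CPM, against 6279 to 6708 CPM. Markers of other cells went both ways. Summed B cell markers were at 791.4 to 1292 CPM, against 350.5 to 371.2 CPM on lean diet, almost all of it Ighm, with Ms4a1 at 0 to 0.36 CPM in the 16-week KO libraries. Summed endothelial markers were at 123.9 to 214.1 CPM, against 42.55 to 77.72 CPM, and stromal and adipocyte markers at 14.35 to 181 CPM, against 6.382 to 11.02 CPM, with Adipoq at 0 in 2 of the 16-week KO libraries. Summed ILC2 and mast cell markers were at 285.3 to 343.1 CPM, against 458 to 553.7 CPM on lean diet, and cytotoxic markers at 288.9 to 375.9 CPM, against 404.4 to 606.9 CPM. Summed macrophage markers overlapped, at 8.995 to 16.34 CPM, against 10.63 to 17.55 CPM. Summed class II and dendritic cell markers did so too, at 127.3 to 195 CPM, against 69.67 to 154 CPM. Single markers of other cells passed by edgeR. Ighm (log2 1.48, adjusted p = 0.00152), the class II gene Cd74 (2.11, 0.00678) and the stromal and adipocyte marker Fabp4 (3.1, 0.0157) rose. The endothelial genes Cldn5 (4.29, 0.0156) and Pecam1 (1.23, 0.0302) rose as well, and the ILC2 gene Il5 fell (-2.13, 0.0335). The part of these groups in the change of Il2ra, Cish, Socs1, Pim1 and Stat5b was not tested. Without the 3 libraries highest in heat shock, cytotoxic or stromal sums, an alternative chosen after the sums were seen, Il2ra and Cish kept their calls and Pim1 had an adjusted p of 0.0623.

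Transferred WT cells were set against lean WT cells, a contrast of 2 groups without the transferred KO libraries. The transferred KO libraries still entered the shared filter, scaling and estimate of the spread. The transferred WT libraries were part of the comparison seen when the members were chosen. The tests of Pim1 and Il2ra here are therefore not independent of that choice. Of the 10 members 6 passed, where 10.5% of 12523 genes did: 4 rose (4.63% of genes rose) and 2 fell (5.84%). Il2ra rose to 1281 ± 189 CPM after transfer, against 544.8 ± 92.1 CPM on lean diet, a log2 fold change of 1.23 ± 0.19 (adjusted p = 0.000256). Socs1 rose to 191.9 ± 24.2 CPM, against 102 ± 10.9 CPM (log2 0.91 ± 0.145, adjusted p = 0.000333), and Cish to 1181 ± 43.7 CPM, against 723.1 ± 40.4 CPM (log2 0.71 ± 0.159, adjusted p = 0.00627). Il2rg rose by less (log2 0.48 ± 0.113, adjusted p = 0.00922). Il2rb fell to 715.8 ± 80.6 CPM, against 1557 ± 350 CPM (log2 -1.12 ± 0.228, adjusted p = 0.00303), and Stat5b to 79.61 ± 16.3 CPM, against 165.8 ± 35 CPM (log2 -1.06 ± 0.24, adjusted p = 0.00681). The alpha chain and the inhibitors were thus higher and the beta chain and Stat5b lower. Pim1 did not pass, at 515.6 ± 20.1 CPM after transfer, against 897.9 ± 136 CPM on lean diet (log2 -0.80 ± 0.357, adjusted p = 0.161), although its libraries did not overlap, as for 20.8% of genes in the lower direction. It was called in the fit of the WT groups compared alone and with no filter, each of which called 7 members. Pim3 (0.41), Stat5a (-0.25) and Pim2 (-0.17) did not pass either. Without WT transfer replicate 2, a fit that takes the remaining transferred WT library to vary like the other groups, the count was 3, Il2ra, Socs1 and Cish, which held in all 12 alternatives; Il2rb, Stat5b and Il2rg then had adjusted p of 0.0604, 0.13 and 0.131, and Il2rg was also lost without WT replicate 2 of the lean diet (0.0551).

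Transferred KO cells, described without a test, gave the same signs against lean KO cells except for Pim1. Log2 values were 1.10 for Il2ra, 0.91 for Socs1, 0.54 for Cish, 0.21 for Il2rg, -0.59 for Il2rb and -0.24 for Stat5b. Pim1 was at 0.58 ± 0.344 in KO and -0.80 ± 0.357 in WT cells, and Pim2 at -1.01 in KO and -0.17 in WT cells. Libraries of transferred and lean KO cells did not overlap for 5 members in the higher direction (17.1% of genes), Il2ra, Il2rg, Cish, Socs1 and Pim1, and for 3 in the lower (16.6%), Il2rb, Stat5a and Pim2.

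Among pathway genes in transferred WT cells, Il9r and Il7r, whose proteins pair with the gamma chain, rose (log2 1.17 and 0.67) and Il21r fell (-0.78), calls lost in 3, 2 and 4 of 12 alternatives. Jak1 fell by 0.44 on the log2 scale. Of negative regulators outside the members, Cblb fell (log2 -1.01, adjusted p = 0.00287 by edgeR), a call kept in all 12 alternatives. The phosphatase gene Ptpn2 rose (0.79, adjusted p = 0.00381), a call lost in 1. Of 22 STAT5 targets 7 rose and 2 fell, with a median log2 fold change of 0.23, against -0.03 over all genes. Osm rose to 100.1 ± 16.1 CPM, against 31.88 ± 11.7 CPM (log2 1.65, adjusted p = 0.000195). Ccnd2, Ctla4, Gata3, Tnfrsf18, Il10 and Bcl2l1 rose by 0.53 to 1.59, and Bcl2, a survival gene, fell by 2.29 and Ccnd3, for cyclin D3, by 0.42. The call of Ccnd3 was lost in 7 of 12 alternatives, that of Il10 in 6, DESeq2 among them, and that of Bcl2l1 in 5. Of the 12 PIM substrate genes 3 rose, Cdkn1a (1.35), Cxcr4 (1.27) and Eif4ebp1 (0.74), the call of Eif4ebp1 being lost in 6 alternatives. Beside these, 12 of 20 immediate early genes and 5 of 9 adipose Treg markers rose, 7 of 20 cell cycle genes fell, and summed cytotoxic markers were at 110.2 to 116.3 CPM after transfer, against 369.4 to 696.8 CPM on lean diet. Summed ILC2 and mast cell markers were higher, at 837.8 to 1068 CPM, against 244.9 to 585.2 CPM. B cell sums were lower, at 138 to 169.9 CPM, against 320.9 to 491.1 CPM. Class II and dendritic cell sums (52.2 to 55.83, against 90 to 111.2 CPM) and endothelial sums (37.95 to 43.17, against 62.7 to 81.05 CPM) were lower too. By edgeR Il13 (log2 3.48, adjusted p = 0.0137) and Rora (1.19, 0.00336) rose. Ighm, Cd79b, Cd74, Ccl5, Prf1 and Nkg7 fell. Trac, at a log2 fold change of 3.53 (adjusted p = 1.53e-12), moved further than any member, and the part of such differences between the 2 sets of libraries in the members' values was not tested.

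Likeness of pattern was measured as Pearson's r of log2 CPM over the 22 libraries, which share diet, transfer and depth, among 9312 genes. The genes most like Il2ra were Cdkn1a (r = 0.953), S100a11 (0.949), Gnb1 (0.948), Cd44 (0.948) and Ywhaz (0.946). Among the members, Il2ra was closest to Cish, with r of 0.939 over all libraries and 0.902 over the 18 diet libraries, followed by Socs1 (0.862 and 0.572), and farthest from Stat5b (-0.858 and -0.743). Pim1 followed no gene as closely over the 22 libraries: its nearest were Rfx2 (0.703), Sun1 (0.7), Polg2 (0.684), Prmt5 (0.677) and Memo1 (0.671). Over the 18 diet libraries alone, r of Pim1 with these genes was 0.831, 0.742, 0.611, 0.595 and 0.662, in the same order. Its r with Il2ra was 0.433, and 0.523 in the diet libraries. The nearest gene of Pim3 was at a similar r, 0.725 over the 22 libraries. Values over the 22 libraries include the transferred KO libraries seen when the members were chosen. These values describe the libraries and carry no test.

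**Figure D4:**
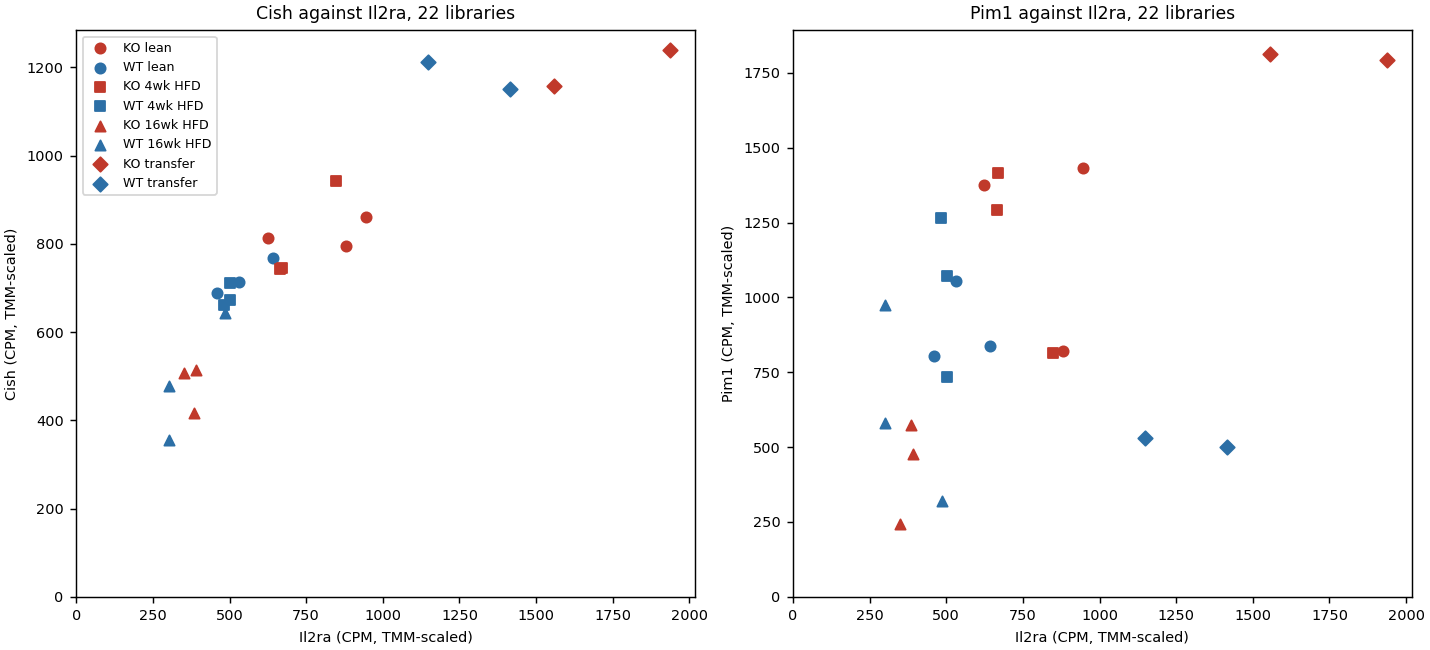
CPM of Cish (left) and Pim1 (right) against CPM of Il2ra in the 22 libraries, on linear axes from 0; colour gives genotype and symbol the diet or transfer. Cish rises with Il2ra across all groups, while for Pim1 the transferred WT libraries (529.8 and 501.4 CPM) lie far below the transferred KO libraries (1794 and 1814 CPM).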

How the data were processed

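The deposited table holds integer counts per gene symbol for 22 libraries. Per the labels' protocols, RNA of 1000 sorted cells was copied from an oligo(dT) primer, PCR-amplified, tagmented with the Nextera XT kit, which does not mark strand, and read as 38-base pairs. The submitters' processing notes name STAR 2.7.3a, the mm10 build and featureCounts; its version and its strand setting were not found in the sources used here. The counts carry no scaling that the authors state. Counts over many PCR copies are not independent molecules, so floors cover counting error only: a gene at 0 could be present at up to 3 counts, 0.542 to 1.6 CPM by library.

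Groups came from the labels. The main test was the quasi-likelihood test of edgeR 4.0.16 in R 4.3.3 on TMM-scaled counts (filterByExpr, minimum count 10; Benjamini-Hochberg adjustment over all genes; threshold 0.05). One fit with group means covered the 18 diet libraries (11698 genes), and another all 22 for the transfer (12523 genes). The procedure was tested on simulated data. SE is of the log2 fold change; CPM are TMM-scaled over 22 libraries. Alternatives were RLE scaling, DESeq2 1.42.0, limma-voom (limma 3.58.1), no filter, a minimum count of 30, a replicate block, a fit of the compared groups alone, and each library left out in turn. Libraries with the same replicate number did not deviate together, and the labels do not say that a number marks a shared animal or day.

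The members and the gene lists were chosen with earlier results of these data known. Named genes were the 10 members, up to 6 called genes per pathway list and comparison by smallest p, and the 5 genes most like Pim1 and Il2ra by Pearson correlation (mean of at least 5 CPM). Positions and exon lengths are from GENCODE M21, in which 52936 of 55011 symbols (96.2%) were found. Promoter windows are from RefSeq. The reported tests use every library. Results for some genes of the lists are not reported here.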

Additional observations from a re-analysis of the deposited data

Results flagged for a closer look

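Pim1 stood out because transfer against lean diet took it in opposite directions in the 2 genotypes: both transferred KO libraries (1794 and 1814 CPM) were above the 3 lean KO libraries (1375, 822.3 and 1432 CPM), while both transferred WT libraries (529.8 and 501.4 CPM) were below the 3 lean WT libraries (836.8, 1054 and 803.1 CPM). The log2 change was 0.58 ± 0.344 in KO and -0.80 ± 0.357 in WT cells (SE), a difference of 1.38. This difference was not tested, since the genes were chosen with the high Pim1 of transferred KO cells in view. The fall in WT cells did not pass (adjusted p = 0.161 by edgeR). Of 12523 genes, 17.1% were higher without overlap in transferred than in lean KO cells. In WT cells 20.8% were lower in this way. Only the 10 members were searched, and the share of all genes with such opposite moves was not computed. Each transfer group holds 2 libraries.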

How the results depend on the processing

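The member counts held under RLE scaling, limma-voom and a minimum count of 30, and in a fit of the compared groups alone except for transferred against lean WT (7, with Pim1, against 6). DESeq2 called 1 member (Cish) for 16 weeks against lean in WT, where edgeR called 0, and 6 (with Stat5a) in KO, where edgeR called 5. With no filter on low counts, members called were 4 for KO against WT on lean diet (Il2ra, Il2rb, Stat5b, Pim1), 1 at 4 weeks, 1 at 16 weeks and 2 for the average, 1 for 4 weeks against lean in KO, 3 for 16 weeks against lean in WT, 1 for 16 against 4 weeks in WT, 1 (Pim1) for each interaction with 16 weeks, 6 (with Stat5a) for 16 weeks against lean in KO and 7 (with Pim1) for transferred against lean WT; the cause was not tested. With libraries left out in turn the counts ran from 2 to 5 for 16 weeks against lean in KO, 0 to 2 in WT, 0 to 2 for 16 against 4 weeks in KO, 0 to 1 for the KO against WT average and 3 to 6 for transferred against lean WT. Without the 3 libraries highest in heat shock, cytotoxic or stromal sums, chosen after seeing the data, 16 against 4 weeks in KO called 1 (Il2ra). The sign of Pim1 averaged over diets, main value 0.03, turned in 5 of the leave-one-out fits (-0.0705 to 0.189), and that of Il2ra in KO against WT at 16 weeks, main value 0.04, ran from -0.0733 to 0.315 and was -0.0951 without the 3 libraries. Same-numbered libraries had deviations correlated at -0.0195 to 0.0906; with the replicate block the counts were 5 for 16 weeks against lean in KO, 3 for 16 against 4 weeks in KO, 6 for transferred against lean WT and 0 elsewhere, as without it. Of 59 called gene results 19 held in every alternative and 0 reversed. Counts over all genes moved more: 696 for 16 weeks against lean in KO ran from 208 to 1085, 192 for 16 against 4 weeks in KO from 32 to 638, 1311 after transfer from 490 to 1580, 10 for 16 weeks in WT from 1 to 178, and 5, 8, 5 and 21 for KO against WT (lean, 4 weeks, 16 weeks, average) up to 135, 75, 428 and 273, each upper end being that without a filter, except after transfer, where it was that of DESeq2. Counts of 0 reached 40 and 112 for 4 weeks against lean in WT and KO, 96 for 16 against 4 weeks in WT, and 22, 258 and 211 for the interactions. At 1955940 to 3467019 counts per diet library, a gene at 0 could be present at up to 3 counts.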
